A study of Mus musculus with 1528 samples.

Results

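Retnla-high cells were the bone marrow–derived macrophages (BMDMs) in which *Retnla* reached 100 CPM, where CPM is the number of fragments of a gene per 1000000 fragments counted on genes in that cell. They made up 69 of the 1439 cells that passed quality filters, out of 1524 sorted wells. The rule chose these cells by their *Retnla* count alone, so *Retnla* itself is described here and not tested, and the comparisons concern the other genes. The remaining 1370 kept cells of the same mice, treatments and plates, all under 100 CPM, are called other cells.

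The macrophages were grown from the bone marrow of 2 wild-type C57BL/6 mice and were all cultured with CSF1 (M-CSF), then stimulated for 24 h with IL4 and IL13 or with IL4, IL13 and TNF, each cytokine at 10 ng/ml. All groups thus share CSF1, IL4 and IL13, and no unstimulated cells were analysed here. The paper describes 2 independent experiments for these single cells, so a difference between the mice may also be one between experiments or cultures. Living single cells were sorted into 4 plates without a macrophage gate, 2 plates for each mouse, with IL4+IL13 in the upper and IL4+IL13+TNF in the lower rows of every plate, so the treatment and the part of the plate cannot be told apart. Smart-seq2, which reads fragments along the whole transcript, was used without molecular identifiers, so PCR copies of a molecule were counted as well.

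*Retnla* encodes resistin-like molecule alpha (RELMα, also called FIZZ1), a small cysteine-rich protein that macrophages secrete. IL4 and IL13 bind receptors that share the IL4 receptor alpha chain, activate JAK kinases and lead to phosphorylation of STAT6, which enters the nucleus and switches on genes of alternative (M2) activation. *Retnla* is a classic member of this group, together with *Arg1*, *Chil3* and *Mrc1*, and RELMα is known from helminth infection and from tissue repair, where it bears on collagen cross-linking.

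The gene lies on chr16:48842551-48844461 of mm10 on the plus strand, as given in the count table (ENSMUSG00000061100). The promoter is shown because the STAT6 pathway is what all the cells were stimulated through. The RefSeq promoter table (build GRCm38.p6) gave the 250 bases before the RefSeq start, chr16:48842359-48842608, on the plus strand, and the gene start used for counting lies inside this stretch. Capitals mark the letters TTC and GAA with 4 bases between, the spacing that STAT6 prefers, and the TATA box letters TATAAA.
Retnla: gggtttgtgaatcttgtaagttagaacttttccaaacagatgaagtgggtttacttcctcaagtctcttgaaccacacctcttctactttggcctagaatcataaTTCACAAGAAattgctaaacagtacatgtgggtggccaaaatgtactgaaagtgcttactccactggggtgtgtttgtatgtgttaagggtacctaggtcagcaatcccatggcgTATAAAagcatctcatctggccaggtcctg

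The STAT6 letters stood once, at −145 to −136 from the RefSeq start, and the TATA box once, at −30 to −25. Both strands were searched, and the motifs did not overlap. Of 32851 RefSeq windows of this length, 5.854% held the STAT6 letters with 4 bases between and 12.37% held TATAAA. The same letters with 3 bases between (7.02% of windows) and the AP-1 letters TGA and TCA with 1 base between (6.749%) were not in the *Retnla* window. Every cell carries this sequence, so these letters say nothing of which cells used the gene.

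With IL4+IL13, 13 of 362 kept cells of mouse 1 were Retnla-high (3.59%, 95% exact Clopper-Pearson interval 1.93 to 6.06), and 47 of 359 cells of mouse 2 (13.1%, 9.78 to 17.03). With IL4+IL13+TNF there were 3 of 363 (0.826%, 0.171 to 2.40) and 6 of 355 (1.69%, 0.623 to 3.64). With IL4+IL13 the plates of a mouse were alike and the mice were not, while with TNF the intervals of the mice overlapped. By plate the shares with IL4+IL13 were 3.31% on plate 2 and 3.87% on plate 3 (mouse 1) and 11.9% on plate 4 and 14.4% on plate 5 (mouse 2). With TNF they were 1.12%, 0.541%, 2.29% and 1.11% in the same order.

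The share with TNF was thus lower on 4 of 4 plates, by 2.76 percentage points in mouse 1 and 11.4 in mouse 2 (mean difference −7.08, SD 6.11, n = 2 mice). The mice differed from each other by more than this mean, and with 2 mice per treatment no exact two-sided permutation test can go below p = 0.33, so the share was not tested. These intervals cover counting error only. A share over a threshold cannot tell fewer expressing cells from less *Retnla* RNA per cell.

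**Figure D1:**
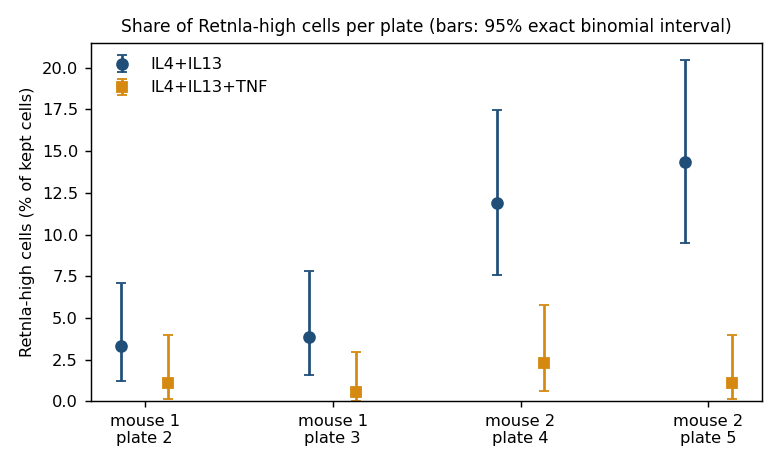
Share of Retnla-high cells among the kept cells of each plate (vertical axis, percent), with IL4+IL13 as circles and IL4+IL13+TNF as squares; bars are 95% exact Clopper-Pearson intervals. The circles of plates 4 and 5 (mouse 2) lie at 11.9% and 14.4%, those of plates 2 and 3 (mouse 1) at 3.31% and 3.87%, and every square lies below the circle of its plate.

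Within the Retnla-high cells the level of *Retnla* spanned a factor of 314, from 108 to 33720 CPM, with both ends in mouse 2 with IL4+IL13. The median Retnla-high cell had 1094 CPM in mouse 1 and 1554 CPM in mouse 2 with IL4+IL13. With TNF the 3 cells of mouse 1 had 582, 1227 and 1426 CPM, and the 6 cells of mouse 2 had 117 to 4498 CPM with a median of 519. The few Retnla-high cells with TNF thus lay inside the range of those with IL4+IL13.

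The highest cell gave 17079 *Retnla* fragments of 506492, or 3.37% of everything counted in it. With IL4+IL13, 8 cells of mouse 1 and 30 of mouse 2 reached 1000 CPM, and the 5 highest, 1 of mouse 1 and 4 of mouse 2, had 13031 to 33720 CPM. With IL4+IL13 a small number of cells carried nearly all of the transcript. There the Retnla-high cells held 97.4% of the summed *Retnla* CPM in mouse 1 and 98.2% in mouse 2, and with TNF 97.0% and 76.2%. In mouse 2 with TNF 1 cell held 52.1%, and on plate 5 with TNF the Retnla-high cells held 39.7%. The rule chose these cells by *Retnla*, so these shares are only described.

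With IL4+IL13 the threshold cut a sparse stretch of the distribution. The 5 members just inside it had 108, 117, 160, 169 and 172 CPM, and the 5 cells just outside had 94.0, 92.2, 89.0, 84.1 and 80.9 CPM. With IL4+IL13, 5 cells of mouse 1 and 11 cells of mouse 2 lay between 50 and 200 CPM. With TNF 0 cells of mouse 1 and 6 of mouse 2 lay there, and 5 of these 6 were under 100 CPM. Mouse 2 had 6 Retnla-high cells with TNF, so membership there hangs more on the threshold. After thinning each cell to 200000 fragments, 68 of the 69 members were again at 100 CPM or more.

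**Figure D2:**
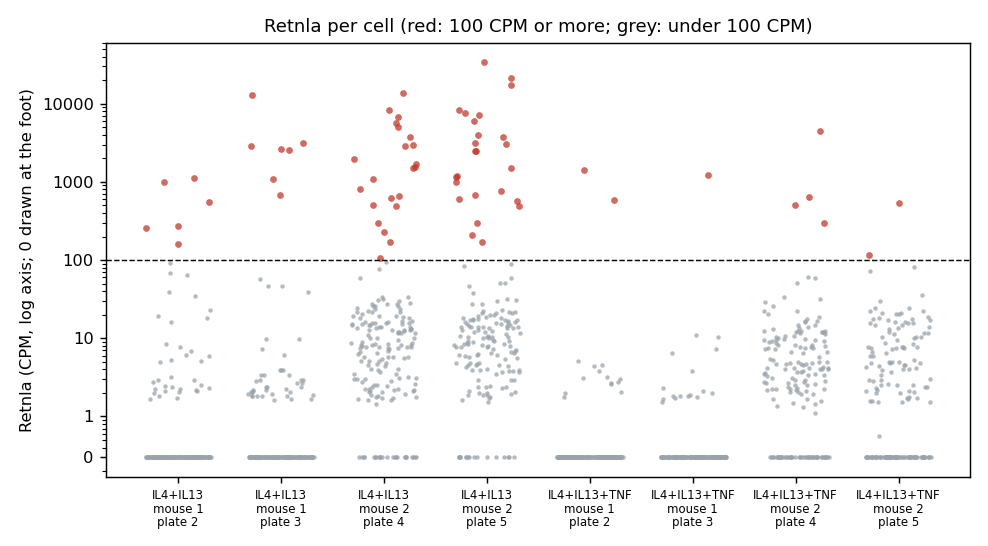
*Retnla* in every kept cell (CPM, log axis, 0 drawn at the foot) by treatment, mouse and plate, with Retnla-high cells in red and other cells in grey; the dashed line is the threshold of 100 CPM. Red cells spread from 108 to 33720 CPM, and the grey cells of mouse 2 sit above 0 far more often than those of mouse 1.

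Other cells were not all free of *Retnla* fragments. With IL4+IL13, at least 1 fragment was found in 76 of 349 other cells of mouse 1 (21.8%, 17.6 to 26.5) and in 271 of 312 of mouse 2 (86.9%, 82.6 to 90.4). With TNF it was found in 29 of 360 (8.06%) and 216 of 349 (61.9%). The mouse with the larger share of Retnla-high cells also had the larger share of other cells with a fragment, in both treatments. The level in these cells was low: the median over all other cells was 0 CPM in mouse 1 and 7.74 CPM in mouse 2 with IL4+IL13, and 2.51 CPM in mouse 2 with TNF.

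On several plates these low counts followed the position of the Retnla-high wells. On plate 3, 34 of 83 other IL4+IL13 cells in a plate row with a Retnla-high cell had a fragment (41.0%), against 7 of 91 in the remaining rows (7.69%). Among the TNF cells of that plate, 15 of 55 in a plate column with a Retnla-high cell of either treatment had one (27.3%), against 1 of 129 elsewhere (0.775%). On plate 2 the row shares were 34.9% and 11.6% with IL4+IL13, and on plate 5 they were 95.5% and 39.6% with TNF. On plate 4 the rows with a Retnla-high cell were not higher, at 83.6% against 95.7% with IL4+IL13 and 68.3% against 72.2% with TNF. What the position has to do with the low counts was not tested, and a *Retnla* fragment in an other cell is not read here as expression.

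Depth and quality of Retnla-high cells differed little from those of other cells with IL4+IL13. The median Retnla-high and other cell had 495952 and 478053 fragments in mouse 1 and 463708 and 479725 in mouse 2. The numbers of genes found at equal depth were 6945 and 6724 in mouse 1 and 6011 and 6092 in mouse 2. Mitochondrial genes took 2.73% of fragments against 3.09% (mouse 1) and 4.01% against 3.72% (mouse 2), so with IL4+IL13 neither class stood apart in both mice. With TNF the few Retnla-high cells were higher in both mice, with a median of 563741 fragments against 444958 in mouse 1 and 538646 against 486218 in mouse 2. Mitochondrial genes took 3.11% against 2.76% and 3.94% against 3.29% of their fragments, and the part of either in the comparison with TNF was not tested.

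Both classes carried the macrophage identity genes. In the summed counts (CPM scaled by TMM, as for all sums of tested genes below), *Adgre1*, which encodes F4/80, was at 1058 CPM in Retnla-high and 907 CPM in other cells of mouse 1 and at 821 and 706 CPM in mouse 2. *Csf1r*, the CSF1 receptor, was at 991 and 842 CPM and at 1600 and 1264 CPM. *Lyz2*, lysozyme, was at 10196 and 11765 CPM and at 12923 and 12639 CPM. All 12 identity genes were found in at least 25% of cells of each mouse, with a median log2 fold change of −0.05.

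Markers of cell types that can also make RELMα or could pass an ungated sort were low. The 8 eosinophil markers summed to 0.157 and 0.388 CPM in the Retnla-high cells of mouse 1 and mouse 2, and the 10 neutrophil markers to 0.157 and 2.42 CPM. The 10 mast cell and basophil markers summed to 2.34 and 1.39 CPM. *Epx*, which encodes eosinophil peroxidase, was at 0 in the Retnla-high cells of mouse 1 and at 0.0431 CPM in those of mouse 2. The lymphocyte list summed to 185 and 277 CPM in Retnla-high and to 278 and 367 CPM in other cells, mostly from *Ighm* and *Il7r*, and *Il7r* was called lower by edgeR when rarely found genes were kept in the fit (adjusted p = 0.0215). The dendritic cell list summed to 9.03 and 33.6 CPM against 21.03 and 41.2 CPM, and the erythroid and megakaryocyte list, mostly *Pf4*, to 73.9 and 44.8 CPM against 48.9 and 33.0 CPM. *Adipoq* of the stromal and adipocyte list was at 19.3 and 7.12 CPM against 1.86 and 5.54 CPM. Their part in the differences below was not tested.

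The question of which other genes mark these cells was asked with IL4+IL13, where each mouse had enough of them. Counts were summed per mouse over Retnla-high and over other cells, and the 4 sums were compared in edgeR with the mouse as a block. No gene passed a Benjamini-Hochberg adjusted p of 0.05. Of 16463 genes tested, 0 were called (0% of the background), the smallest adjusted p was 0.98, and 762 genes (4.63%) had an unadjusted p under 0.05. Of these 250 were higher (1.52%) and 512 lower (3.11%) in Retnla-high cells. limma on the mean log2(CPM + 1) per cell also called 0 genes, with 754 (4.58%) at an unadjusted p under 0.05.

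DESeq2 with the same block called 20 genes (0.121%), 8 of them higher (0.0486%) and 12 lower (0.0729%). edgeR without the filter on rarely found genes called 15, all lower (0.035%), and 9 genes were in both sets. The difference therefore depended on the tool, and the values below describe genes that were not past the threshold of the edgeR test unless another tool is named. A further view counts, among 9804 genes found in at least 25% of cells of each mouse, those that differed the same way on 4 of 4 plates: 629 were higher (6.42%) and 780 lower (7.96%).

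Among the receptors and kinases upstream of *Retnla*, *Il4ra*, the shared receptor chain, had 34.4 CPM in Retnla-high and 11.6 CPM in other cells of mouse 1 but 13.4 and 16.5 CPM in mouse 2. *Stat6* itself had 178 and 148 CPM in mouse 1 and 188 and 156 CPM in mouse 2 (log2 fold change 0.27 ± 0.14 SE), and was higher on 3 of 4 plates. *Il13ra1*, the chain that binds IL13, was found in few cells of either class, in 2 of 13 Retnla-high and 30 of 349 other cells of mouse 1 and in 2 of 47 and 40 of 312 of mouse 2. Its summed level was 0.467 against 5.08 CPM and 0.0889 against 3.94 CPM (unadjusted p = 0.0136 in edgeR). The highest other cells had 339 and 433 CPM and the highest Retnla-high cells 3.93 and 3.26 CPM. *Il2rg*, *Jak1* and *Tyk2*, the further chain and kinases of the receptor, had values of 0.27 ± 0.18, −0.14 ± 0.14 and −0.13 ± 0.25. Of the 13 genes of this list all were tested, and 0 were called in either direction. Of 9 well-detected members 1 was higher and 1 lower on every plate (6.42% and 7.96% of all well-detected genes). The median log2 fold change over the list was −0.13, beside −0.08 over all genes tested.

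*Klf4*, a zinc-finger factor that works with STAT6 in M2 activation, was the regulator with the steadiest difference. It was at 193 and 122 CPM in Retnla-high and other cells of mouse 1 and at 242 and 183 CPM in mouse 2 (0.53 ± 0.15, unadjusted p = 0.0265, adjusted p = 0.98 in edgeR), and higher on 4 of 4 plates. At least 100 CPM of *Klf4* was found in 9 of 13 Retnla-high cells against 46.4% of other cells in mouse 1, and in 35 of 47 (74.5%, 59.7 to 86.1) against 53.2% (47.5 to 58.8) in mouse 2. The classes overlapped widely, from 0 to 708 CPM in Retnla-high and from 0 to 921 CPM in other cells of mouse 1.

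*Cebpb*, a C/EBP factor known to act at the *Retnla* promoter, went the other way, with 17.6 and 39.1 CPM in mouse 1 and 53.1 and 73.9 CPM in mouse 2 (−0.81 ± 0.30). *Pparg*, a lipid-sensing nuclear receptor of M2 macrophages, differed by less than its error, at 80.8 and 77.8 CPM and at 83.6 and 77.04 CPM (0.09 ± 0.19). The list of *Retnla*-linked regulators had 18 of 19 members tested, none called, and a median of 0.21. Of its 12 well-detected members 3 were higher and 1 lower on every plate (6.42% and 7.96% of all well-detected genes).

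The M2 genes of the study's signature were on average a little higher in Retnla-high cells. *Mrc1*, the mannose receptor CD206, was at 1575 and 1216 CPM in Retnla-high and other cells of mouse 1 and at 1424 and 1238 CPM in mouse 2 (0.29 ± 0.09, adjusted p = 0.98 in edgeR), and higher on 4 of 4 plates. *Clec10a*, a galactose-binding lectin, was at 305 and 262 CPM and at 452 and 343 CPM (0.31 ± 0.12), also higher on 4 of 4 plates. *Mgl2*, its neighbour and close relative, was at 869 and 805 CPM and at 981 and 612 CPM (0.40 ± 0.17), but not higher on plate 2.

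By cell the same pattern was a shift and not a separation. The median Retnla-high cell had 1436 CPM of *Mrc1* against 924 CPM in other cells of mouse 1, and 1300 against 1112 CPM in mouse 2. For *Clec10a* the medians were 199.5 against 136 CPM and 323 against 179 CPM. The lowest Retnla-high cell of mouse 2 had 0 CPM of *Clec10a* and the highest 1678 CPM, while other cells reached 3439 CPM. *Apoe*, the apolipoprotein, went opposite ways in the mice, at 74.9 against 247 CPM and at 547 against 299 CPM, and *Il10* was under 12 CPM throughout. None of the 5 genes was called, and their median was 0.31.

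Beside *Retnla* the study names 8 genes as examples of its type 1 and type 2 mRNAs, which are classes of the response to IL4+IL13 and TNF, and most of them were rare in these cells. *Mamdc2* was at 0 and 0.934 CPM in the Retnla-high cells of mouse 1 and mouse 2 against 8.06 and 16.9 CPM in other cells. It was called lower by DESeq2 (adjusted p = 0.0303) and by edgeR with rarely found genes kept (adjusted p = 0.0249). edgeR with the gene filter did not call it (adjusted p = 0.98). *Nes* was at 0 and 0.0445 CPM against 3.20 and 1.38 CPM, and *Proz* at 1.56 and 1.07 CPM against 5.08 and 6.01 CPM. *Kitl*, the ligand of KIT, was at 28.0 and 14.7 CPM against 29.5 and 29.8 CPM, and *Gypc* went opposite ways in the mice. The study sorted mRNAs into these classes by bulk RNA-seq and named most of the examples from these single cells, so they are no independent evidence. *Mrc1*, described above, and *Mertk*, described below, also belong to the list and were its 2 members with a positive log2 fold change. Of 4 well-detected genes of the list 1 was higher and 1 lower on every plate (6.42% and 7.96% of all well-detected genes). For the whole list, edgeR with the gene filter called none. The median was −0.55 over the 8 genes and 0.10 over the 4 well-detected ones.

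*Arg1*, which encodes arginase 1, is often read beside *Retnla* as an M2 marker, and its relation to Retnla-high cells was opposite in the mice. In mouse 1 none of the 13 Retnla-high cells reached 100 CPM of *Arg1* (0%, 0 to 24.7), against 33 of 349 other cells (9.46%). In mouse 2, 13 of 47 did (27.7%, 15.6 to 42.6), against 30 of 312 (9.62%, 6.58 to 13.4). The summed level was 1.56 against 52.0 CPM in mouse 1 and 339 against 165 CPM in mouse 2, and the log2 fold change of −1.24 ± 1.72 was 1.04 without mouse 1. When rarely found genes were kept in the fit, edgeR called *Arg1* lower (−1.64 ± 0.37, adjusted p = 0.0358), over the same opposite values of the mice. *Chil3* (Ym1), a secreted M2 marker, was at 4.58 CPM or less in both classes with IL4+IL13, and with TNF at 7.82 and 13.96 CPM in other cells and at most at 0.295 CPM in Retnla-high cells.

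Other STAT6 targets did not move as a group. Of 30 listed genes 22 were tested, edgeR called 0, and the median was −0.33 over those tested and 0.10 over the 14 well-detected ones. None of these 14 was higher and 1 was lower on every plate (6.42% and 7.96% of all well-detected genes). *Tfrc*, the transferrin receptor, was at 145 and 279 CPM in mouse 1 and at 638 and 305 CPM in mouse 2, and *Flt1*, a VEGF receptor, at 78.3 and 67.1 CPM and at 105 and 102 CPM. The relatives of *Retnla* were not found at any height: with IL4+IL13 *Retnlb* was at 0 in both classes and *Retnlg* reached at most 0.517 CPM, and with TNF *Retnlb* was found in 1 other cell and *Retnlg* reached 0.699 CPM. Of the neighbouring genes on the chromosome, *Cip2a* was at 18.7 and 32.7 CPM in mouse 1 and at 51.6 and 40.9 CPM in mouse 2 (−0.23 ± 0.41). Of the 11 relatives and neighbours 4 had counts enough for a test, and none was called.

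**Figure D3:**
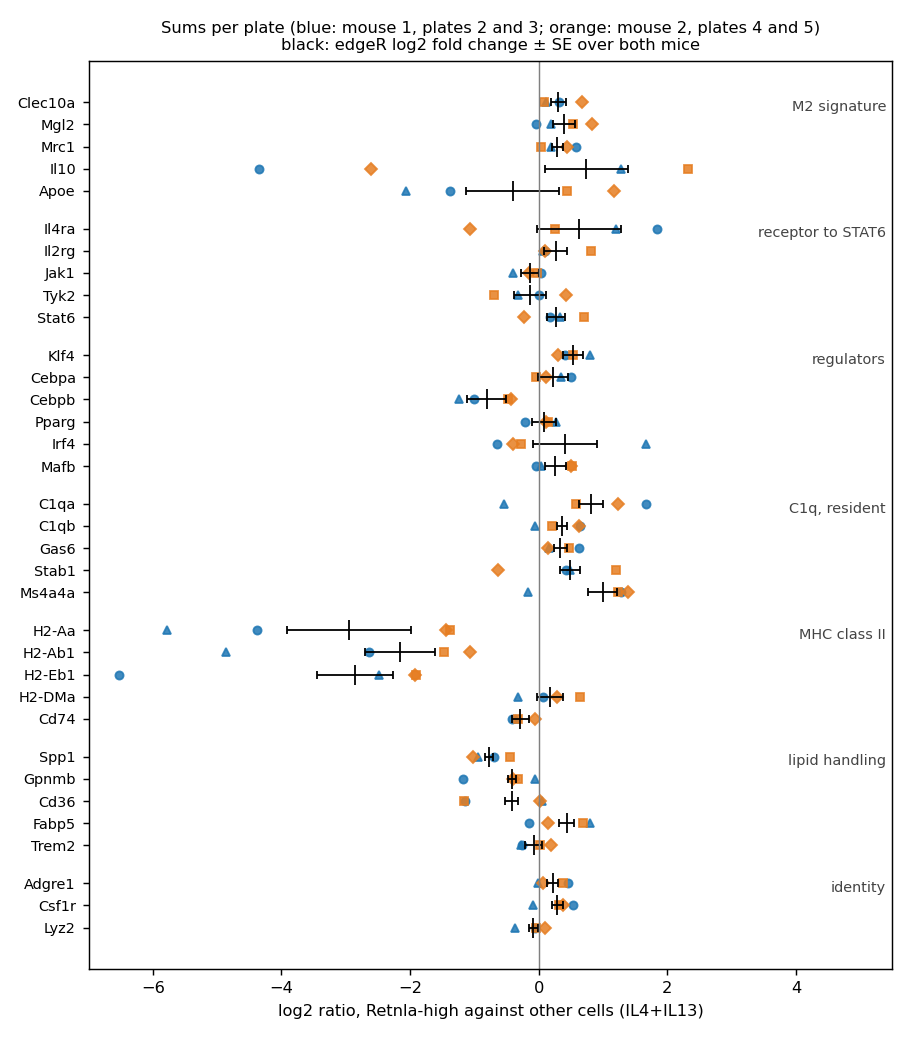
log2 ratio of Retnla-high against other cells with IL4+IL13 (horizontal axis) for genes in 7 groups, with 1 symbol per plate (plate sums in CPM with 0.5 added; blue, mouse 1; orange, mouse 2) and the edgeR log2 fold change ± SE over both mice in black. *Mrc1*, *Clec10a* and *Klf4* lie right of 0 on 4 of 4 plates and *H2-Aa*, *H2-Ab1*, *H2-Eb1*, *Spp1* and *Gpnmb* left of it, while *Apoe* has 1 mouse on each side.

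The gene with the smallest unadjusted p was *Spp1*, which encodes osteopontin, a secreted phosphoprotein. It was at 2058 CPM in Retnla-high and 3636 CPM in other cells of mouse 1 and at 1469 and 2431 CPM in mouse 2. The log2 fold change was −0.77 ± 0.07 (unadjusted p = 4.3e-04, adjusted p = 0.98 in edgeR, 1.24e-05 in DESeq2), and it was lower on 4 of 4 plates. The median cell had 1802 against 2508 CPM in mouse 1 and 834 against 1715 CPM in mouse 2, and nearly all cells of both classes held *Spp1*.

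*Gpnmb*, a membrane glycoprotein of lipid-laden macrophages, was at 3145 and 4349 CPM in mouse 1 and at 3536 and 4573 CPM in mouse 2 (−0.42 ± 0.06), and lower on 4 of 4 plates, though by only 0.05 on plate 3. *Fth1*, ferritin heavy chain, was at 31792 and 38260 CPM and at 28922 and 33479 CPM (−0.24 ± 0.03). *Cd36*, a scavenger receptor, and *Atp6v0d2*, a proton pump subunit, had values of −0.42 ± 0.10 and −0.45 ± 0.11 and were lower on 2 and on 3 of 4 plates. The list of *Gpnmb*-type lipid genes was not lower as a whole, with a median of −0.13. Of its 13 members, 2 were lower and none higher on every plate (7.96% and 6.42% of all well-detected genes). edgeR called none of them, DESeq2 called *Spp1* lower, and edgeR with rarely found genes kept called *Spp1* (adjusted p = 7.39e-06) and *Mmp12* (5.42e-18) lower. *Fabp5*, a fatty acid carrier, was at 403 and 297 CPM and at 333 and 248 CPM (0.43 ± 0.12), and *Trem2* at 762 and 916 CPM and at 947 and 881 CPM.

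*Mmp12*, macrophage elastase, again differed between the mice. It reached 100 CPM in none of 13 Retnla-high cells of mouse 1 against 133 of 349 other cells (38.1%, 33.0 to 43.4), and in 10 of 47 (21.3%, 10.7 to 35.7) against 91 of 312 (29.2%, 24.2 to 34.6) in mouse 2. Its summed level was 13.2 against 597 CPM and 467 against 499 CPM.

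The MHC class II genes, which present peptides to CD4+ T cells, had the lowest median among the lists of macrophage, pathway and cell cycle genes, taken over well-detected members. *H2-Eb1* was at 7.47 and 121 CPM in Retnla-high and other cells of mouse 1 and at 83.2 and 317 CPM in mouse 2 (−2.86 ± 0.59, adjusted p = 0.98 in edgeR and 8.87e-11 in DESeq2). *H2-Aa* was at 9.03 and 255 CPM and at 189 and 505 CPM (−2.95 ± 0.97), and *H2-Ab1* at 29.0 and 261 CPM and at 247 and 580 CPM (−2.16 ± 0.54). All 3 were lower on 4 of 4 plates. DESeq2 also called *H2-Aa* and *H2-Ab1* lower (adjusted p = 3.52e-08 and 3.57e-08). When rarely found genes were kept in the fit, edgeR called *H2-Aa*, *H2-Eb1* and *H2-Ab1* lower (adjusted p = 6.31e-26, 1.33e-20 and 1.77e-17). Of the 8 well-detected genes of the list, 4 were lower and none higher on every plate (7.96% and 6.42% of all well-detected genes). With the gene filter 0 were called in edgeR, and the median of the 8 was −0.50.

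The difference lay in few cells with a very high level. The median cell had 1.88 CPM of *H2-Aa* in the Retnla-high and 2.33 CPM in the other cells of mouse 1, and 27.9 and 22.01 CPM in mouse 2. At least 100 CPM was found in 0 of 13 against 40 of 349 cells (11.5%, 8.32 to 15.3) in mouse 1, and in 10 of 47 (21.3%, 10.7 to 35.7) against 57 of 312 (18.3%, 14.1 to 23.02) in mouse 2. The highest Retnla-high cell had 2124 CPM and the highest other cell 12029 CPM. Without cells at 100 CPM of *H2-Aa* or more in either class, an alternative chosen after seeing the data, the values turned to 0.83 for *H2-Aa*, 1.03 for *H2-Ab1* and 0.81 for *H2-Eb1*.

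**Figure D4:**
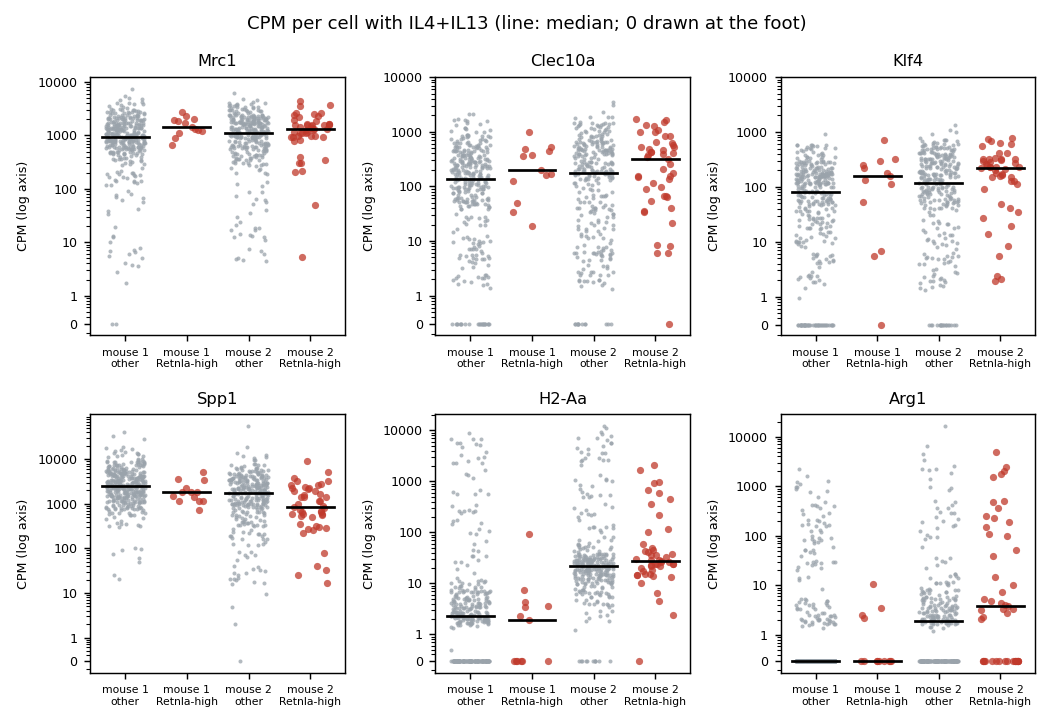
CPM per cell (log axis, 0 drawn at the foot) of 6 genes with IL4+IL13, other cells in grey and Retnla-high cells in red for each mouse; black lines are medians. The medians of *Mrc1*, *Clec10a* and *Klf4* are higher and that of *Spp1* lower in Retnla-high cells of both mice, *H2-Aa* medians are near each other, and *Arg1* over 100 CPM is seen in Retnla-high cells of mouse 2 only.

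Some genes of resident-type and C1q-bearing macrophages were higher. *C1qa* and *C1qb*, chains of the complement component C1q that coats dying cells, were at 164 against 103 CPM and 2262 against 1861 CPM in mouse 1. In mouse 2 they were at 90.9 against 46.5 CPM and 2216 against 1634 CPM (0.82 ± 0.19 and 0.36 ± 0.08). Both were higher on 3 of 4 plates, and *C1qc* was not higher in mouse 1 (320.2 against 445 CPM, and 744 against 530 CPM in mouse 2). *Mertk*, a receptor for dying cells, was at 32.5 and 13.4 CPM in mouse 1 and at 72.3 and 29.9 CPM in mouse 2 (1.28 ± 0.28). A *Mertk* fragment was found in 4 of 13 and 23 of 47 Retnla-high cells, against 87 of 349 and 121 of 312 other cells. The median Retnla-high cell had 0 CPM in both mice and the highest of mouse 1 had 351 CPM, so the sum of mouse 1 hangs on few cells. The ligand *Gas6* was at 711 and 552 CPM and at 470 and 382 CPM (0.33 ± 0.10, higher on 4 of 4 plates).

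*Ms4a4a*, a membrane protein of M2 macrophages, was at 136 and 85.3 CPM and at 210 and 84.4 CPM (1.00 ± 0.23, adjusted p = 0.98 in edgeR and 0.0402 in DESeq2). It reached 100 CPM in 7 of 13 against 20.6% of cells in mouse 1 and in 16 of 47 (34.0%) against 24.04% in mouse 2. *Cd5l*, a secreted inhibitor of macrophage cell death, was at 50.4 and 20.4 CPM and at 62.9 and 18.5 CPM (1.54 ± 0.30, 0.0498 in DESeq2). Both genes were higher on 3 of 4 plates. Of the C1q-Maf list 3 of 10 well-detected genes were higher and none lower on every plate, with a median of 0.34. Of the resident-type list 1 of 9 was higher and none lower, with a median of 0.45 over those tested. Over all well-detected genes 6.42% were higher and 7.96% lower on every plate, with a median of −0.02. No member of either list was called in edgeR.

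*Retnla* encodes a secreted protein, and the genes of the translocation and folding machinery differed little. Of 20 secretory pathway genes 3 were higher and 1 lower on every plate (6.42% and 7.96% of all well-detected genes), and none was called. Their median was 0.17, beside −0.02 over all well-detected genes. With TNF 10 of the 20 were higher and 5 lower in both mice (19.2% and 34.2% of all well-detected genes), with a median of 0.19 beside −0.21, and edgeR called none. *Hspa5*, the chaperone BiP, was at 1215 and 1180 CPM in mouse 1 and at 877 and 666 CPM in mouse 2. Cell cycle genes differed between the mice: *Top2a*, a topoisomerase of dividing cells, reached 100 CPM in 4 of 13 Retnla-high cells (30.8%, 9.09 to 61.4) against 23.2% of other cells in mouse 1, and in 2 of 47 (4.26%, 0.520 to 14.5) against 14.1% (10.4 to 18.5) in mouse 2. Of 20 well-detected G2/M genes none was higher and 3 were lower on every plate (6.42% and 7.96% of all well-detected genes). The median of the G2/M list was −0.42. DESeq2 called *Ube2c* of this list lower (adjusted p = 0.0498), as did edgeR with rarely found genes kept (adjusted p = 0.0138).

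No member of the remaining lists was called. Higher and lower on every plate were 2 and 1 of 12 well-detected genes of the TNF and NF-κB response, 1 and 0 of 11 chemokines, 0 and 0 of 8 AP-1 genes, and 1 and 2 of 11 interferon-stimulated genes. They were 1 and 2 of 15 S phase genes, 1 and 0 of 10 stress genes and 1 and 0 of 4 monocyte-type genes. Over all well-detected genes 6.42% were higher and 7.96% lower on every plate. The medians of these lists over well-detected members lay between −0.27 and 0.27, beside −0.02 over all well-detected genes.

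The 10 genes on either side that the naming rule picked by their unadjusted p covered other functions. On the higher side *Cfp*, properdin, which stabilises the alternative complement convertase, was at 752 and 499.6 CPM in mouse 1 and at 652 and 454 CPM in mouse 2 (0.56 ± 0.10, adjusted p = 0.98 in edgeR and 0.0498 in DESeq2). *Ctsl*, the lysosomal protease cathepsin L, was at 3217 and 2442 CPM and at 2350 and 1897 CPM (0.35 ± 0.07). *Clec4a3*, a lectin receptor, was at 425 and 307 CPM and at 660 and 435 CPM (0.53 ± 0.11). The trafficking genes *Ap1b1* of the AP-1 adaptor coat (0.76 ± 0.15) and *Vta1* of the endosomal sorting machinery (0.98 ± 0.19) and *Erp44*, a chaperone that retains secretory proteins (0.67 ± 0.14), were also on this side. *Mrpl37*, *Cmtm3*, *Arhgef6* and *Thoc1* completed it, at 0.59 to 1.15.

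On the lower side *Spp1*, *Fth1*, *Gpnmb* and *H2-Eb1* are described above. *Ube2c* and *Nuf2*, a ubiquitin-conjugating enzyme and a kinetochore protein of mitosis, were at 69.1 and 129 CPM and at 12.8 and 51.9 CPM in mouse 1, and at 34.1 and 106 CPM and at 9.92 and 30.8 CPM in mouse 2. *Mfge8*, which bridges dying cells to macrophages, had a value of −1.01 ± 0.22. *Ythdf1*, *Trim35* and *Ap1ar* had −1.20, −0.92 and −1.51. The 20 genes met the conditions of direction and detection that 647 higher and 768 lower genes met, and were chosen by the test itself.

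The share of Retnla-high cells near each other lay below that of full mixing in mouse 1 and a little above it in mouse 2. These departures, opposite in the mice, were not tested. Among the 20 nearest cells of the same mouse and treatment, in 30 principal components of 2000 variable genes without *Retnla*, a measure chosen after seeing the data, 1.92% were Retnla-high in mouse 1 where 3.32% would follow from full mixing, and 16.6% in mouse 2 where 12.8% would. Among the neighbours of other cells 3.31% and 11.4% were Retnla-high. With 13 members in mouse 1, the 20 neighbours could not all be Retnla-high. For comparison, cells with at least 100 CPM of *Top2a* had 75% and 60.3% of such neighbours where mixing gives 23.3% and 12.6%, and those with 100 CPM of *H2-Aa* had 20.3% and 34.0% where it gives 10.8% and 18.4%. For these 2 only the gene itself was left out, so genes that vary with it stayed among the variable genes.

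Within the Retnla-high cells the amount of *Retnla*, which chose the cells, was compared by rank with other genes as a description. How many genes went with it was not counted. Across the 13 cells of mouse 1 and the 47 of mouse 2, Spearman's rho of *Retnla* was −0.07 and 0.32 with *Clec10a*, −0.33 and 0.21 with *Mrc1*, and 0.10 and −0.51 with *Fth1*, and it was −0.02 and −0.10 with the total fragments of the cell. Of 9804 genes ranked by the smaller of their 2 positive values, *S100a1*, a calcium-binding protein, was the most alike (0.54 and 0.45), followed by *Rpl10-ps1*, *Gm10913*, *Gm44510* and *Tns1*. At the negative end *Rps6ka2*, a ribosomal S6 kinase, had −0.52 and −0.51, followed by *Zfp160*, *Paxip1*, *Gm12115* and *Ssbp1*. The cells of a mouse share a culture and plates and their counts are sparse, so these values only describe.

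With IL4+IL13+TNF the Retnla-high cells were 9, and the sums of 3 and 6 cells were compared with those of 360 and 349 other cells in the same way. Of 16315 genes, 0 were called (0%), with a smallest adjusted p of 0.564 and 1086 genes (6.66%) at an unadjusted p under 0.05. The median over all genes was −0.47, and the values of single genes stand beside that. The fit without the block called 0 genes as well, with 2269 at an unadjusted p under 0.05.

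*Clec4e* encodes Mincle, a lectin receptor that TNF and NF-κB signals induce. The 3 Retnla-high cells of mouse 1 had 0, 0 and 3.76 CPM of it, and the 6 of mouse 2 had 0, 2.18, 3.64, 3.79, 153 and 1017 CPM. In other cells 230 of 360 (63.9%) and 185 of 349 (53.0%) reached 100 CPM. Thus 7 of the 9 cells lay under the first quartile of the other cells of their mouse, and 2 were among the cells at 100 CPM or more. The log2 fold change was −4.26 ± 1.74 (unadjusted p = 0.0503, adjusted p = 0.664 in edgeR).

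Other genes of the inflammatory response were present in these cells. *Nfkbia*, the inhibitor of NF-κB, was at 216 CPM in Retnla-high and 512 CPM in other cells of mouse 1 and at 353 and 398 CPM in mouse 2, and *Sod2*, a mitochondrial superoxide dismutase, at 227 and 543 CPM and at 390.4 and 487 CPM. *Saa3*, an acute-phase protein, was at 0 in 6 of 9 Retnla-high cells and at most at 20.8 CPM, and the median other cell had 0 and 1.92 CPM while 17.5% and 17.2% reached 100 CPM. *Ccl5*, a chemokine for T cells and monocytes, was at 0 in 8 of 9, and also in the median other cell of both mice. Of the 18 well-detected genes of the TNF and NF-κB list, 12 were lower and 1 higher in both mice, with a median of −0.62. Over all 10210 well-detected genes 34.2% were lower and 19.2% higher in both mice, with a median of −0.21. edgeR called none of the list.

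*Ccl24*, eotaxin-2, which draws eosinophils and is itself induced by IL4, was at a high level in some of these cells. The cells of mouse 1 had 0, 63.9 and 181 CPM and those of mouse 2 had 0, 1.44, 1.56, 3.83, 183 and 1068 CPM. A fragment was thus found in 7 of 9, though 3 of these had under 4 CPM, against 34 of 360 and 66 of 349 other cells. At least 100 CPM was found in 3 of 9, against 6 of 360 (1.67%) and 16 of 349 (4.58%) other cells. The log2 fold change was 3.79 ± 0.51 (unadjusted p = 3.3e-04, adjusted p = 0.664 in edgeR). With IL4+IL13 the highest Retnla-high cells had 40.3 and 24.1 CPM of *Ccl24* and the highest other cells 99.3 and 153 CPM. Within the cells with TNF, some listed STAT6 targets were lower in Retnla-high than in other cells: *Ccl22* (−7.13 ± 0.68), *Ccl17* (−6.36 ± 1.76) and *Socs1* (−4.70 ± 1.43). The *Ccl22* sums of other cells, 42.4 and 371 CPM, included cells of up to 8681 and 28599 CPM. In mouse 2 a *Ccl22* fragment was found in 4 of 6 Retnla-high and 153 of 349 other cells. *Ccl22* and *Ccl17* were at 0 in the median other cell. Of 15 well-detected listed targets 5 were higher and 3 lower in both mice (19.2% and 34.2% of all well-detected genes).

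*Mrc1* ran from 560 to 2117 CPM in the cells of mouse 1 and from 1.89 to 2953 CPM in those of mouse 2, with 7 of 9 over the median of other cells (405 and 578 CPM). Its log2 fold change was 0.96 ± 0.25 and that of *Klf4* 1.16 ± 0.37 (adjusted p = 0.664 for both in edgeR). *Klf4* was over the median of other cells in 9 of 9, at 52.6 to 183 CPM in mouse 1 and 60.5 to 481 CPM in mouse 2. *Clec10a* was over the median in 6 of 9 and *Mgl2* in 5 of 9. *Arg1* was at 1174 CPM in 1 cell and at 11346 CPM in another and at 73.4 CPM or less in the other 7.

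**Figure D5:**
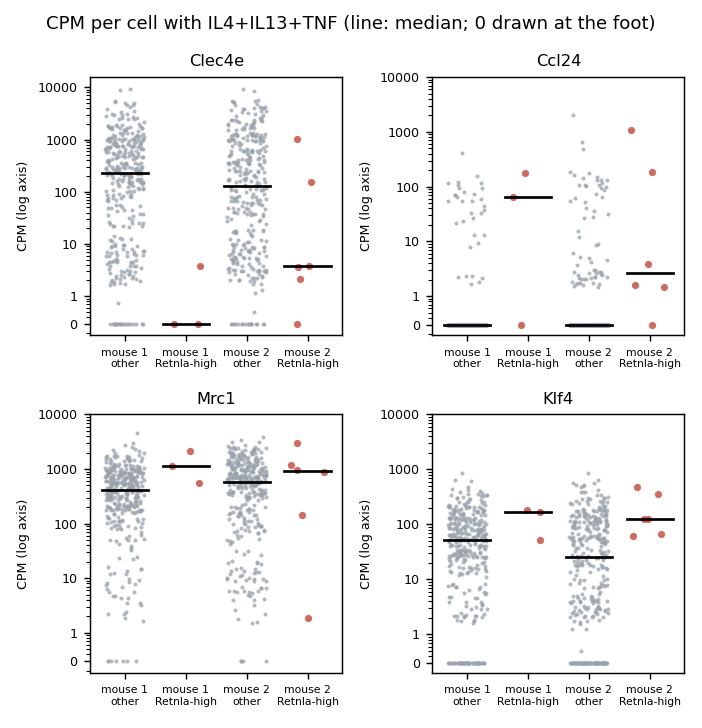
CPM per cell (log axis, 0 drawn at the foot) of 4 genes with IL4+IL13+TNF, other cells in grey and the 9 Retnla-high cells in red; black lines are medians. *Clec4e* is under 4 CPM in 7 of the 9 red cells, and *Klf4* is over the grey median in all 9.

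Genes of the cell cycle were at a high level in few cells of either class with TNF. *Top2a* was at 0 in the 3 Retnla-high cells of mouse 1, at 151 CPM in 1 cell of mouse 2 and at 28.2 CPM or less in the other 5, and the third quartile of other cells was 11.3 and 4.495 CPM. *Ube2c* was found in 2 of 3 and 2 of 6 Retnla-high cells and in 127 of 360 and 122 of 349 other cells. In the sums 15 of 17 well-detected G2/M genes and 14 of 15 S phase genes were lower in both mice, beside 34.2% of all well-detected genes. The sums rest on 3 and 6 cells, and edgeR called no gene of either list.

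Whether TNF changed what sets Retnla-high cells apart was tested as the interaction of treatment and class over the 8 sums. Of 16566 genes, 0 were called (0%), with a smallest adjusted p of 0.766 and 1034 genes (6.24%) at an unadjusted p under 0.05. The interaction was 0.57 ± 0.35 for *Klf4*, 0.61 ± 0.30 for *Mrc1* and −3.02 ± 2.64 for *Clec4e*. The larger values of *Klf4* and *Mrc1* with TNF were therefore not shown to differ from those with IL4+IL13.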

How the data were processed

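Single BMDMs were profiled by Smart-seq2 in 1524 wells of known mouse and treatment. The authors demultiplexed the reads (bcl2fastq 2.19.1), aligned them with gsnap to mm10 and deposited raw fragment counts per gene and well, made with featureCounts 1.6.3 from uniquely mapped fragments against an Ensembl annotation. The deposited counts were taken as they are, without strand, so overlapping and antisense genes cannot be told apart. The table has 55421 genes and 92 spike-in rows, and 8 columns could be tied to no sample by name and stayed out, as did 4 samples whose labels name no mouse.

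Cells were kept with at least 200000 gene fragments, 5000 genes and at most 10% of fragments on mitochondrial genes. No doublet caller was run. Kept cells had 200235 to 6122892 fragments (median 471020), and the sums of Retnla-high cells with IL4+IL13 held 6360648 and 23204597 fragments. The mouse is the replicate, and p-values rest on the spread between 2 mice, which edgeR moderates with the spread of all genes. Each mouse had its own plates, and the paper describes 2 independent experiments. Differences between mice, their plates, cultures and experiments cannot be told apart. Counts summed per mouse and class were tested with edgeR 4.0.16 (R 4.3.3; glmQLFit, glmQLFTest, TMM, genes in at least 5% of cells that pass filterByExpr, Benjamini-Hochberg threshold 0.05) with the mouse as a block, because both classes come from the same mice. Across 9804 genes the differences of the mice correlated with r = 0.451.

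The members, gene lists and tests were chosen with earlier results of these data known. Genes are named from fixed lists and, by a fixed rule, as the 10 higher and 10 lower genes past the threshold that differed the same way in both mice and on every plate, were found in at least 25% of cells of the higher class and had no more than 50% of their level from 1 cell. Since none was past it, both sides were filled by the smallest unadjusted p. Single cells or cells of special interest were picked after their values were seen. The alternatives were no block, sums per plate, DESeq2 1.42.0, limma 3.58.1, total fragments instead of TMM factors, all genes with a fragment, thresholds of 50, 200 and 1000 CPM, other cells under 10 CPM, a filter at 3 median absolute deviations, no cell filter, totals without *Retnla*, all 8 sums in 1 fit, and leaving out each plate, mouse or Retnla-high cell. Leaving out the cell with the most *Retnla*, and cells at 100 CPM of *H2-Aa*, was added after seeing the data.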

Additional observations from a re-analysis of the deposited data

Results flagged for a closer look

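The log2 ratio of *H2-Eb1* between Retnla-high and other cells with IL4+IL13 was −6.53 on plate 2, far from the values of −2.49, −1.91 and −1.92 on plates 3, 4 and 5. The gap to the nearest plate exceeded the 95% limit of Dixon's test for 4 values, which chance passes in about 1 of 20 groups. The test was run on the 20 genes that the naming rule picked and on the shares of each treatment, and nothing else passed the limit. Plate 2 held 6 Retnla-high cells.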

How the results depend on the processing

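The comparison rests on 2 mice, with 13 Retnla-high cells in mouse 1, and on fragments that include PCR copies, so genes of a few CPM such as *Il10* hang on single cells. Apart from the alternatives named here, each gave 0 genes higher and 0 lower. DESeq2 called 8 higher and 12 lower, and no gene filter 15 lower. With no replicate block, which leaves out the pairing by mouse, the counts were again 0 and 0 (612 at an unadjusted p under 0.05 in edgeR), and 0 in the fit with TNF.

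Of 73 genes followed, 53 kept their sign under every alternative, and the log2 fold changes below did not. The cause was not tested. With no replicate block *Apoe* was 0.19 and *Arg1* 0.66, and with sums per plate *Il10* was −1.09. With limma *Apoe* was 0.16, *Arg1* 0.37, *Pparg* −0.39, *Cd74* 0.61, *Top2a* 0.20, *Ube2c* 0.24 and *Lyz2* 0.064. From 50 CPM *Jak1* was 0.049 and *Pparg* −0.042, against other cells under 10 CPM *Pparg* was −0.00542, and without a gene filter −0.058. Without cells at 100 CPM of *H2-Aa*, *H2-Aa* was 0.83, *H2-Ab1* 1.03, *H2-Eb1* 0.81, *Cd74* 1.01 and *Il10* −1.07.

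Leaving out a plate, a mouse or a Retnla-high cell gave ranges across 0 of −1.74 to 1.43 for *Il10*, −1.72 to 0.87 for *Apoe*, −4.67 to 1.04 for *Arg1*, −4.22 to 0.029 for *Chil3*, −0.29 to 1.53 for *Il4ra*, −0.42 to 0.16 for *Tyk2*, −0.22 to 0.19 for *Pparg*, −0.72 to 1.55 for *Ppargc1b* and −0.78 to 1.18 for *Irf4*. They were −0.062 to 0.85 for *Stab1*, −0.0996 to 0.45 for *H2-DMa*, −0.27 to 0.10 for *Trem2*, −1.62 to 0.24 for *Top2a* and −0.21 to 0.032 for *Lyz2*. The extremes of *Apoe*, *Arg1*, *Il4ra*, *H2-DMa*, *Trem2* and *Lyz2* came from leaving out 1 mouse. The share of Retnla-high cells was lower with TNF in both mice under every alternative, with a mean difference of −4.87 percentage points at 1000 CPM and −8.05 at 50 CPM.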
